A study of Homo sapiens with 6 samples.

Results

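The genes described here make up the integrated stress response and the unfolded protein response: a list of 44 gene symbols, each matched by its Ensembl identifier to a row of the count table, out of 60483 genes listed there and 16198 with enough reads to test. All 44 passed the filter on low counts. They were measured by stranded, single-end RNA-seq in A2780, a human ovarian carcinoma cell line, with 3 libraries of the parental cells (WT) and 3 of a CDK12 knock-out derivative (KO), and none of the cells received a drug. Both were grown in RPMI medium with fetal bovine serum. The KO cells are a single clone, obtained with CRISPR/Cas9 directed at exon 1 of CDK12 in 2 successive rounds of transfection and selection, and the study describes a changed chromosome number in it. What belongs to the loss of CDK12, to the clone and to its ploidy therefore cannot be told apart.

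CDK12 is a kinase of RNA polymerase II, and the study asked how its loss changed gene expression. The integrated stress response starts from kinases that phosphorylate the translation factor eIF2alpha. General protein synthesis then slows while the transcription factor ATF4 is translated more, and ATF4, paired with C/EBP and other bZIP proteins, turns on genes of amino acid uptake and synthesis, tRNA charging and cell death. The unfolded protein response is set off by misfolded protein in the endoplasmic reticulum (ER) through the sensors PERK (EIF2AK3), IRE1 (ERN1) and ATF6, and raises chaperones and the machinery that degrades misfolded proteins. Much of both pathways acts through phosphorylation, translation, cleavage and splicing, which counts per gene do not measure.

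Most of the genes had more mRNA in KO. With edgeR's quasi-likelihood test, 30 of the 44 were higher in KO at an adjusted p under 0.05 (68.2%, against 31.9% of all tested genes), 7 were lower (15.9%, against 32.0%) and 7 did not pass. Most changes were small: 4 genes, SLC7A11, DDIT4, VLDLR and ATF3, were up-regulated with a log2 fold change above 1 (9.09%, against 8.30% of all tested genes), and 1 gene, PSAT1, was down-regulated below -1 (2.27%, against 7.73%). The share past both thresholds upwards was thus close to that of all genes. The values of the 3 WT and the 3 KO libraries did not overlap for 37 members (84.1%, against 66.4%). The median log2 fold change was 0.30 for the members and 0.00044 for all tested genes. The genes were chosen with earlier results of these data known, so these counts are descriptions and the list itself was not tested. The labels do not say that the libraries of a group came from separate cultures, so the p-values measure only the spread between these libraries, which may be technical. In bulk RNA a change per cell and a change in the share of cells that express a gene cannot be told apart.

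**Figure D1:**
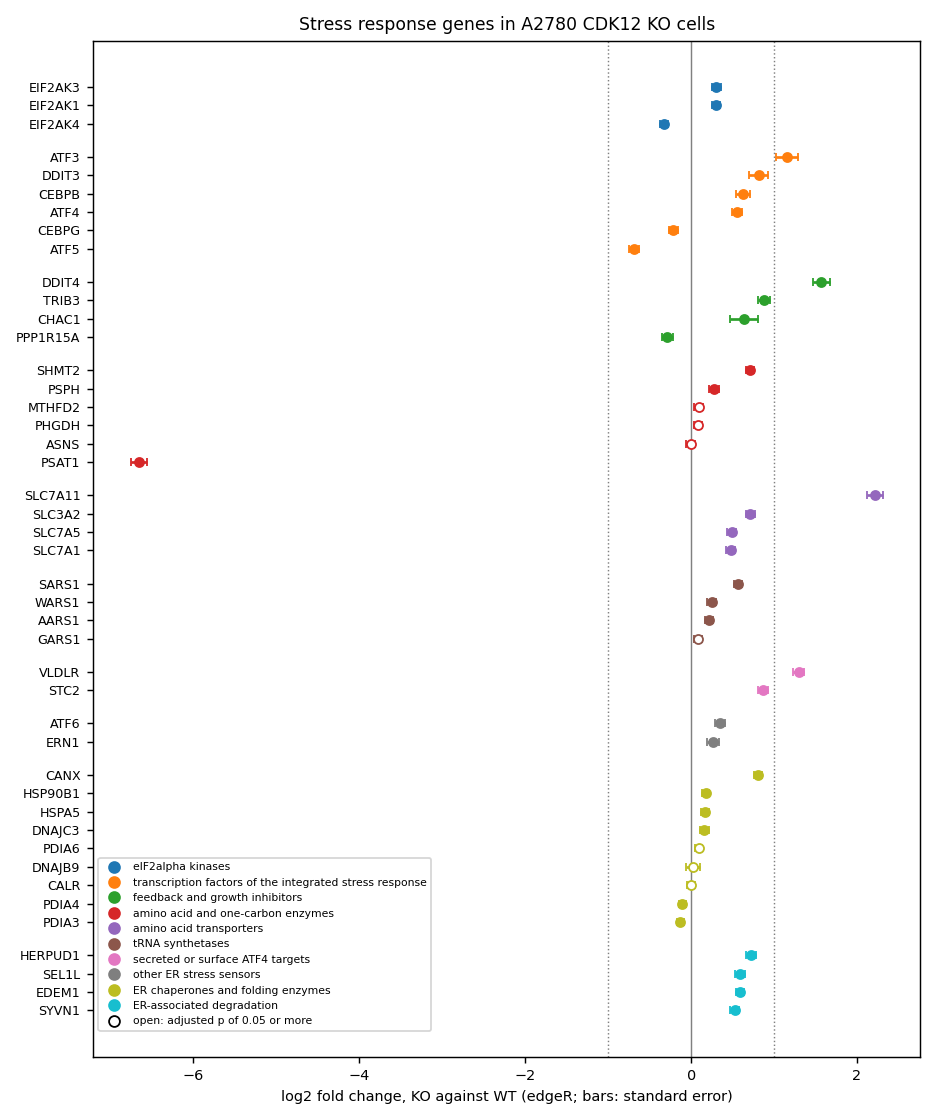
Log2 fold change of each of the 44 genes, KO against WT, on the horizontal axis, with genes grouped by role on the vertical axis. Points are edgeR estimates, bars their standard errors, open points have an adjusted p of 0.05 or more, and dotted lines mark log2 fold changes of -1 and 1. PSAT1 stands alone at -6.66, SLC7A11 is highest at 2.22, and 30 filled points lie right of 0 against 7 left of it.

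CDK12 itself had 103, 125 and 117 CPM (counts scaled to the size of each library) in WT replicates 1 to 3. In KO replicates 1 to 3 it had 99.0, 93.0 and 102 CPM. Its log2 fold change was -0.23 (adjusted p = 0.00082). With 32.0% of all tested genes lower, a change of this size cannot check the labels. The paper reports that western blots found no CDK12 protein in the KO cells. Counts over the whole gene do not show whether exon 1 carries an edit. Total counts ranged from 11098400 to 30899045 per library, so that 3 counts, the floor of detection used here, correspond to between 0.0971 and 0.270 CPM. Of 8 markers of epithelial and Müllerian cells, only EPCAM, KRT8 and KRT18 exceeded 1 CPM in every library, while PAX8, WT1, MUC16, KRT7 and CDH1 did not. The summed level of the 8 was 68.2 to 73.9 CPM in WT and 114 to 119 CPM in KO, carried by KRT18 (means of 59.9 and 103 CPM), while EPCAM was lower in KO (log2 fold change -0.53, adjusted p = 0.0119). Leukocyte and endothelial markers were near 0, with sums of at most 1.04 and 0.892 CPM. The 4 fibroblast markers, mostly COL1A1 and COL1A2, fell from sums of 5139 to 5271 CPM in WT to 2677 to 2811 CPM in KO. DCN and LUM were low in WT (means of 0.757 and 0.613 CPM) and had 0 counts in every KO library. Whether these shifts have a part in the results below was not tested.

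Promoter sequence shows which of the genes hold the letters that the transcription factors of both pathways are known to bind. RefSeq start sites on GRCh38.p14 gave windows of 250 bases before to 50 bases after the start for 39 of the 44 genes, and none for PSPH, SHMT2, EIF2AK1, SLC7A11 and PDIA3. The C/EBP-ATF response element, TGATGNAA on either strand, occurred in 9 of the 39 (23.1%, against 4.46% of 27305 genes with a window): AARS1, ASNS, ATF3, CEBPG, CHAC1, GARS1, HERPUD1, SLC3A2 and SLC7A1. The ER stress element, bound by ATF6 together with NF-Y and made of CCAAT and CCACG 9 bases apart, occurred in 5 (12.8%, against 0.0916%), namely CALR, CANX, HSP90B1, HSPA5 and PDIA6. The ER stress element II, ATTGG and CCACG 1 base apart, occurred in HERPUD1 alone of the members (2.56%, against 0.0696%). The UPR element TGACGTGG was in none of the 39 windows and in 0.927% of all genes, which says only that these letters are not in these windows. A match is a run of letters and not a shown binding site. The members were picked as genes of the pathways that these elements serve, so a share above that of all genes is no independent result.

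The following stretches, 5′ to 3′ on the strand of the gene, show genes that hold a match and differed in their RNA change. The match is in capitals. They are ATF3 (chr1:212565176-212565263, plus strand, before the annotated gene), ASNS (chr7:97872458-97872487, minus strand, in an exon of the GENCODE annotation upstream of a RefSeq start), CHAC1 (chr15:40953251-40953280, plus strand, likewise exonic in GENCODE), CEBPG (chr19:33374031-33374112, plus strand, outside its annotated exons), HERPUD1 with both a C/EBP-ATF element and an ER stress element II (chr16:56931926-56932075, plus strand, before the gene), HSPA5 (chr9:125241386-125241414, minus strand, before the gene), CANX (chr5:179698773-179698801, plus strand, exonic in GENCODE) and CALR (chr19:12938359-12938442, plus strand, before the gene). In CHAC1, HERPUD1 and CALR the C/EBP-ATF or ER stress element lies on the opposite strand, so it is read here as its reverse complement.
ATF3: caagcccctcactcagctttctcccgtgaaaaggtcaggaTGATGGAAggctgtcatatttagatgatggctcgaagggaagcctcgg
ASNS: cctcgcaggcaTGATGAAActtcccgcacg
CHAC1: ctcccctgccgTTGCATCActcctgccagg
CEBPG: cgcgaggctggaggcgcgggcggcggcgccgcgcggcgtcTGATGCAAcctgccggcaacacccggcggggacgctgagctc
HERPUD1: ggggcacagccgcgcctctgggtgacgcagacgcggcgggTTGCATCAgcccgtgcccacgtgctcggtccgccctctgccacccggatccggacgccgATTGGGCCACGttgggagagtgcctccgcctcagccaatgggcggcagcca
HSPA5: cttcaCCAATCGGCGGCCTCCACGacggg
CANX: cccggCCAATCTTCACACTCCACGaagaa
CALR: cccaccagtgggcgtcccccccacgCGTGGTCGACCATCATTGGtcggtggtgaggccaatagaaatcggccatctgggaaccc

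Of the 9 genes with a C/EBP-ATF element, 6 were higher in KO, 1 was lower (CEBPG) and 2 did not pass (ASNS and GARS1), and their median log2 fold change was 0.48. The share higher was near that of all members (68.2%), so nothing particular to these 9 genes is read from it. Of the 5 genes with an ER stress element, 3 were higher (CANX, HSP90B1 and HSPA5), none was lower and 2 did not pass (CALR and PDIA6), with a median of 0.16. With 31.9% of all tested genes higher and 32.0% lower, 5 genes are too few to read a share from. HSPA5, CALR and CANX, which each hold a match to the ER stress element, had log2 fold changes of 0.16, -0.00 and 0.81. Whether the matches have a part in these values was not tested.

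The eIF2alpha kinases among the members differed in direction. EIF2AK4 (GCN2), which senses uncharged tRNA, had 130, 140 and 135 CPM in WT and 108, 107 and 110 CPM in KO, in the order of replicates 1 to 3, as in all values below. All KO libraries were below all WT libraries, with a log2 fold change of -0.32 (SE 0.0486, adjusted p = 7.74e-07). EIF2AK3 (PERK), the kinase in the ER membrane, had 38.9, 42.4 and 42.1 CPM in WT and 51.9, 50.1 and 50.0 CPM in KO. Its groups did not overlap, and the log2 fold change was 0.30 (SE 0.0576, adjusted p = 2.75e-05). EIF2AK1 (HRI), which responds to heme shortage and mitochondrial signals, had 166, 172 and 160 CPM in WT and 205, 204 and 206 CPM in KO. It too was higher in every KO library (log2 fold change 0.30, SE 0.0469, adjusted p = 1.24e-06). EIF2AK1 shares exon bases with AIMP2 on the opposite strand. EIF2AK2, another eIF2alpha kinase that is not a member, was lower without overlap, with means of 241 CPM in WT and 187 CPM in KO. Its log2 fold change was -0.36 (SE 0.0511, adjusted p = 2.14e-07).

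Of the 6 transcription factors, 4 rose and 2 fell, and for none did the groups overlap. Of all tested genes, 31.9% were higher, 32.0% were lower and 66.4% did not overlap. ATF4 mRNA had 483, 381 and 408 CPM in WT and 621, 593 and 650 CPM in KO. Every KO library was above every WT library (log2 fold change 0.55, SE 0.0598, adjusted p = 1.38e-09), although ATF4 activity is set mainly by translation, which was not measured. ATF3, a bZIP factor induced by many stresses whose upstream sequence is shown above, was low in WT, at 7.04, 4.77 and 3.69 CPM, and had 11.5, 11.0 and 14.3 CPM in KO. ATF3 (ENSG00000162772, chr1:212565334-212620777, plus strand) was up-regulated, with a log2 fold change of 1.15 (SE 0.135, adjusted p = 6.87e-09). DDIT3, which encodes the pro-apoptotic factor CHOP, had 18.4, 12.3 and 11.4 CPM in WT and 22.9, 24.0 and 30.1 CPM in KO. WT replicate 1 lay closest to KO but did not reach it, and the log2 fold change was 0.81 (SE 0.111, adjusted p = 1.45e-07). DDIT3 shares exon bases with MARS1 and MBD6, both on the opposite strand and with many more reads, and whether the counting used strand is not given in the sources used here. CEBPB, a dimer partner of ATF4, was higher by 0.63 on the log2 scale (adjusted p = 2.03e-07).

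The other 2 factors went the other way. ATF5, a close relative of ATF4 whose translation is controlled in the same manner, had 71.1, 62.7 and 67.9 CPM in WT and 40.5, 41.7 and 43.0 CPM in KO. It was lower in every KO library (log2 fold change -0.69, SE 0.0579, adjusted p = 4.03e-12), and shares exon bases with NUP62 on the opposite strand. CEBPG, the other C/EBP partner, had 108, 99.7 and 101 CPM in WT and 92.3, 84.4 and 90.1 CPM in KO. The difference was small but without overlap (log2 fold change -0.21, SE 0.0521, adjusted p = 0.000596).

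Among the feedback and growth inhibitors that ATF4 and CHOP are known to induce, DDIT4 had the largest increase. DDIT4 (REDD1), which restrains the growth kinase mTORC1, had 190, 109 and 132 CPM in WT and 427, 394 and 461 CPM in KO. The lowest KO library was above the highest WT library, and the gene (ENSG00000168209, chr10:72273919-72276036, plus strand) was up-regulated 2.97-fold (log2 fold change 1.57, SE 0.101, adjusted p = 4.75e-15). TRIB3, a pseudokinase that restrains ATF4 and the kinase AKT, had 39.0, 32.2 and 33.3 CPM in WT and 62.2, 59.1 and 72.5 CPM in KO. Its groups were well apart (log2 fold change 0.88, SE 0.0713, adjusted p = 1.8e-12). PPP1R15A (GADD34), the phosphatase subunit that reverses eIF2alpha phosphorylation, had 55.6, 47.2 and 53.5 CPM in WT and 38.9, 43.1 and 45.7 CPM in KO. It was lower in KO without overlap (log2 fold change -0.29, SE 0.0657, adjusted p = 0.000281).

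CHAC1, which degrades glutathione, was the 1 called member whose groups overlapped. It had 31.0, 12.1 and 12.7 CPM in WT and 31.2, 27.7 and 32.2 CPM in KO, so that WT replicate 1 was at the level of KO and the other WT libraries were far below it. The log2 fold change was 0.64 (SE 0.171, adjusted p = 0.0016). It ranged from 0.32 to 1.29 when 1 library was left out, and the call was lost without WT replicate 2 (adjusted p = 0.0722) and in DESeq2 (adjusted p = 0.181). WT replicate 1 was the highest of its group for 25 of the 44 members. Its gap to the mean of the other WT libraries exceeded 0.5 on the log2 scale for ATF3, DDIT3, DDIT4 and CHAC1 (up to 1.32). Of all tested genes, 4.22% had such a gap in WT replicate 1. KO replicate 3 was the highest of its group for 31 members, with no gap over 0.45, while 2.82% of all tested genes had a gap over 0.5 there. How often each library was the highest over all tested genes was not counted. Without WT replicate 1, the number of members with a log2 fold change above 1 rose from 4 to 6.

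**Figure D2:**
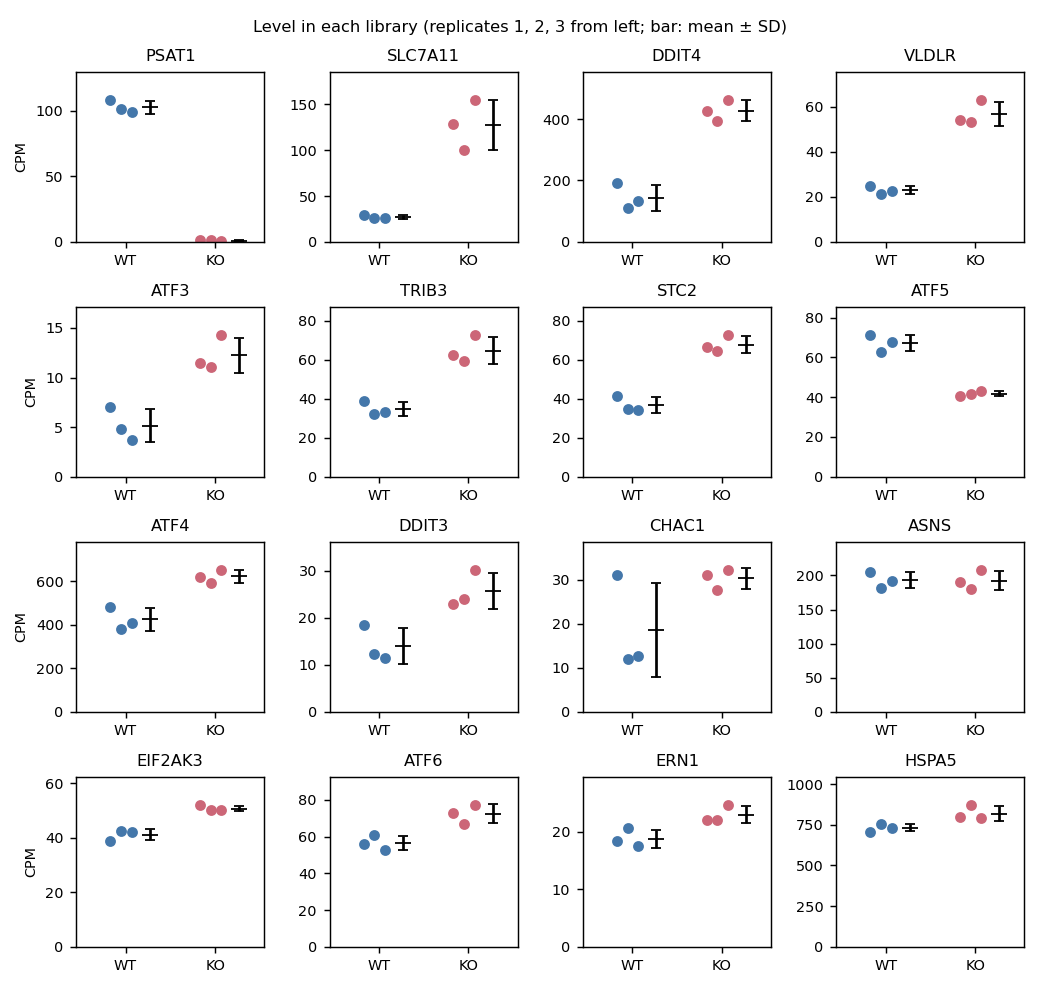
Level in CPM, on a linear axis from 0, of 16 of the genes in each library (points from left to right: replicates 1, 2 and 3; blue WT, red KO), with the mean and SD of each group as a bar beside the points. PSAT1 is near 1 CPM in all KO libraries, SLC7A11 and DDIT4 are higher in all of them, and for CHAC1 the point of WT replicate 1 (31.0 CPM) lies at the level of KO.

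The enzymes of amino acid and one-carbon metabolism held the largest change of all members. PSAT1, the transaminase of serine synthesis, had 2955, 3022 and 1094 counts in WT and 26, 28 and 16 counts in KO, which correspond to 108, 101 and 98.5 CPM and to 1.06, 1.04 and 0.899 CPM. PSAT1 (ENSG00000135069, chr9:78297125-78330093, plus strand) was therefore 101-fold lower, with a log2 fold change of -6.66 (SE 0.097, adjusted p = 5.24e-33), and remained above the floor in every KO library. None of its 4 listed pseudogenes had more than 3 counts in all libraries together. The enzymes before and after it in serine synthesis were not called lower. PHGDH, which opens the pathway, gave a log2 fold change of 0.08 (adjusted p = 0.142), and PSPH, which closes it, was higher by 0.27 (adjusted p = 0.000179), though 490 counts went to its pseudogene PSPHP1. SHMT2, the mitochondrial enzyme that turns serine into glycine, was higher by 0.71 (adjusted p = 7.2e-14), and MTHFD2, which uses the one-carbon unit released, gave a log2 fold change of 0.09 (adjusted p = 0.14). ASNS, asparagine synthetase and a standard ATF4 target with the element shown above, had 206, 182 and 192 CPM in WT and 190, 180 and 208 CPM in KO. The groups overlapped throughout, and the log2 fold change was -0.01 (SE 0.054, adjusted p = 0.935).

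All 4 amino acid transporters were higher in KO, as were 31.9% of all tested genes. The WT and KO groups overlapped for none of the transporters, and did not overlap for 66.4% of all tested genes. SLC7A11, the cystine and glutamate exchanger xCT, had 29.4, 25.9 and 26.3 CPM in WT and 129, 99.8 and 155 CPM in KO. The KO libraries spread more widely than the WT libraries, with means of 128 ± 27.4 and 27.2 ± 1.91 CPM (SD, n = 3), yet all lay far above them. SLC7A11 (ENSG00000151012, chr4:138164097-138242349, minus strand) was up-regulated 4.65-fold (log2 fold change 2.22, SE 0.0941, adjusted p = 6.76e-20). SLC3A2, the heavy chain that carries both SLC7A11 and SLC7A5 to the cell surface, was higher by 0.71 on the log2 scale (adjusted p = 4.73e-13). SLC7A5, the exchanger of large neutral amino acids, was higher by 0.49 (adjusted p = 1.36e-09), and SLC7A1, which imports arginine and lysine, by 0.48 (adjusted p = 4.2e-09). Summed over the 4 genes, the level was 610 to 678 CPM in WT and 944 to 1124 CPM in KO.

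Of the 4 cytosolic tRNA synthetases, which charge tRNA with amino acids, 3 were higher and 1 did not pass. The share higher among all tested genes was 31.9%. SARS1 (serine) was higher by 0.56 on the log2 scale (adjusted p = 8.16e-12), WARS1 (tryptophan) by 0.25 (adjusted p = 0.00036) and AARS1 (alanine) by 0.22 (adjusted p = 0.000195). GARS1 (glycine) gave a log2 fold change of 0.08 (adjusted p = 0.148). GARS1 and AARS1 each hold a match to the C/EBP-ATF element, and whether the matches have a part in these values was not tested.

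Both ATF4 targets at or outside the cell surface rose. Of all tested genes, 31.9% were higher and 66.4% did not overlap, and 2 genes are too few to read a share from. VLDLR, a lipoprotein receptor, had 24.9, 21.3 and 22.7 CPM in WT and 54.0, 53.0 and 62.8 CPM in KO. The groups were far apart, and VLDLR (ENSG00000147852, chr9:2621182-2660056, plus strand) was up-regulated 2.45-fold (log2 fold change 1.29, SE 0.0707, adjusted p = 6.28e-17). STC2, a secreted glycoprotein, had 41.3, 34.9 and 34.1 CPM in WT and 66.5, 64.4 and 72.6 CPM in KO. Again no KO library was as low as any WT library (log2 fold change 0.87, SE 0.0649, adjusted p = 2.32e-13).

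The remaining 2 ER stress sensors were modestly higher, too few to read a share from (31.9% of all tested genes were higher and 66.4% did not overlap). ATF6, which is cleaved under stress to release a transcription factor, had 55.8, 60.8 and 52.9 CPM in WT and 73.1, 67.0 and 77.1 CPM in KO. The groups did not overlap (log2 fold change 0.34, SE 0.0592, adjusted p = 6.82e-06). ERN1, the kinase and endonuclease IRE1 that splices XBP1 mRNA, had 18.3, 20.6 and 17.5 CPM in WT and 22.1, 22.1 and 24.6 CPM in KO. The gap between WT replicate 2 and KO was small (log2 fold change 0.26, SE 0.0757, adjusted p = 0.00297), and the call was lost when every library was thinned to the size of the smallest (adjusted p = 0.0513).

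The 9 ER chaperones and folding enzymes were divided: 4 were higher, 2 were lower and 3 did not pass, shares not far from the 31.9% and 32.0% of all tested genes. HSPA5 (BiP), the main ER chaperone and the standard readout of the unfolded protein response, had 708, 752 and 733 CPM in WT and 796, 871 and 790 CPM in KO. All KO libraries were above all WT libraries, by little (log2 fold change 0.16, SE 0.0492, adjusted p = 0.0045). HSP90B1 (GRP94) was higher by 0.17 (adjusted p = 0.00189) and DNAJC3, a co-chaperone that inhibits eIF2alpha kinases, by 0.16 (adjusted p = 0.0158), which was lost without WT replicate 1 (adjusted p = 0.169) and without KO replicate 1 (adjusted p = 0.0811). CANX, calnexin, the membrane lectin that holds glycoproteins while they fold, stood apart from the rest at 0.81 (adjusted p = 1.23e-15), at 654 ± 29.3 CPM in WT against 1145 ± 41.6 CPM in KO (mean ± SD, n = 3). CALR, calreticulin, its soluble counterpart, gave a log2 fold change of -0.00 (adjusted p = 0.98).

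Of the 3 disulfide isomerases, 2 were lower and 1 did not pass (32.0% of all tested genes were lower). PDIA3, which works with calnexin and calreticulin, had 503, 513 and 513 CPM in WT and 466, 472 and 458 CPM in KO. It was lower without overlap (log2 fold change -0.13, SE 0.0451, adjusted p = 0.0116), a call lost without KO replicate 3 (adjusted p = 0.0624), and 1760 counts went to its pseudogene PDIA3P1. PDIA4 was lower by a log2 fold change of -0.10 (adjusted p = 0.0476), which missed the threshold in 7 of 13 alternative settings. PDIA6 had 0.09 (adjusted p = 0.09), and DNAJB9, a co-chaperone of BiP and a target of spliced XBP1, had 0.02 (adjusted p = 0.849).

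The 4 genes of ER-associated degradation, which removes misfolded proteins to the proteasome, were all higher without overlap. Among all tested genes, 31.9% were higher and 66.4% did not overlap, and 4 genes are too few to read a share from. HERPUD1, an ER membrane protein that helps to assemble the degradation complex and whose 2 elements are shown above, was higher by 0.72 on the log2 scale (adjusted p = 1e-11). SEL1L and SYVN1, the adaptor and the ubiquitin ligase of that complex, were higher by 0.59 (adjusted p = 2.88e-10) and 0.52 (adjusted p = 1.09e-10). SYVN1 shares exon bases on the same strand with FAU, so its reads cannot be fully told apart from those of FAU. EDEM1, which directs misfolded glycoproteins to degradation, was higher by 0.59 (adjusted p = 6.21e-12). The summed level of the 4 was 260 to 264 CPM in WT and 391 to 409 CPM in KO, while that of the 9 chaperones and folding enzymes was 4770 to 4969 CPM in WT and 5487 to 5642 CPM in KO.

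Levels can be compared between genes only per length, and CPM were therefore divided by the length of the Ensembl canonical transcript in kilobases. On this scale CALR was the highest of the members in both groups, at 453 CPM per kilobase in each. SARS1 and ATF4 followed in KO, at 446 and 438 CPM per kilobase. DDIT4 moved from rank 15 of 44 in WT (82.3 CPM per kilobase) to rank 6 in KO (245 CPM per kilobase), and SLC7A11 from rank 41 (2.82) to rank 34 (13.2). PSAT1 moved from rank 19 (46.4 CPM per kilobase) to rank 44 (0.453 CPM per kilobase), below ERN1, which was last in WT at 2.38 CPM per kilobase.

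**Figure D3:**
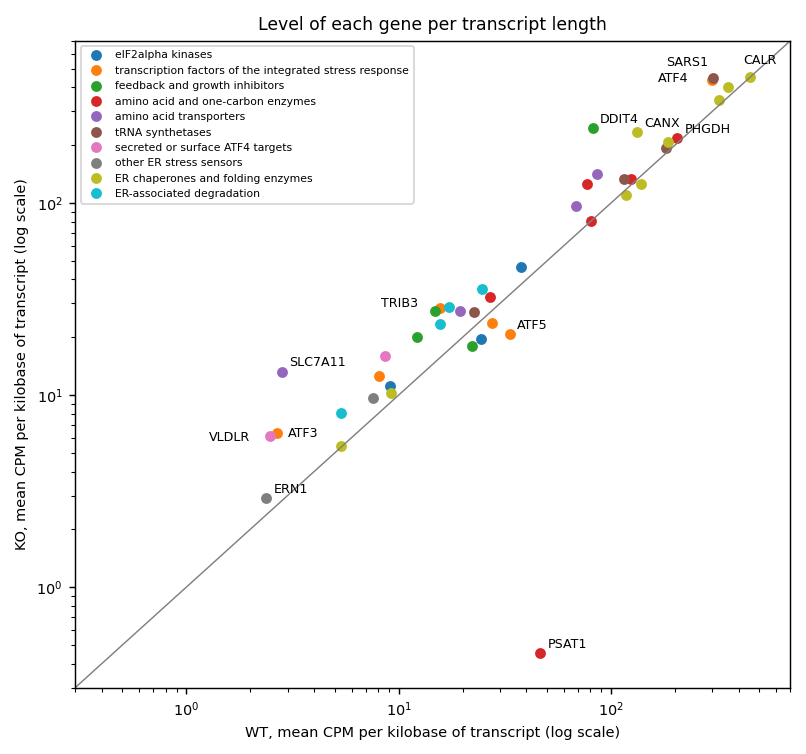
Mean level of each of the 44 genes in WT (horizontal) and KO (vertical), in CPM per kilobase of transcript, both on log scales, coloured by role, with the line of equal levels in grey. Most points lie on or just above the line, SLC7A11 (2.82 to 13.2) and DDIT4 (82.3 to 245) lie clearly above it, and PSAT1 (46.4 to 0.453) lies far below.

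The genes around the members past both thresholds were looked at after their values were seen, taking the 4 nearest tested genes on each side. Around PSAT1, no neighbour fell to a like degree: the 8 log2 fold changes ran from -0.49 (TLE4, adjusted p = 0.0558) to 0.75 (RASEF), and CEP78 next to it was lower by -0.21. Around DDIT4, the log2 fold changes ran from -1.11 (RPL17P50, adjusted p = 0.0108) to 2.79 (SPOCK2). RPL17P50 was low, with means of 0.607 CPM in WT and 0.275 CPM in KO. The nearest tested gene on each side of DDIT4 was higher, with 0.57 for ANAPC16 and 0.76 for DNAJB12, while MCU gave -0.07 (adjusted p = 0.227). Of all tested genes, 31.9% were higher. Around VLDLR, the log2 fold changes ran from -0.64 (GLIS3, adjusted p = 0.103) to 6.56 (SMARCA2, adjusted p = 3.33e-32). SMARCA2, the second tested gene before VLDLR, stood at 0.850 CPM in WT against 81.6 CPM in KO. Next to VLDLR, VLDLR-AS1 was higher by 0.70 (adjusted p = 0.0155), while PUM3 on the other side was lower by -0.33. VLDLR-AS1 shares exon bases with VLDLR on the opposite strand. Around SLC7A11, PCDH10, the second tested gene before it, was lower (adjusted p = 1.05e-12), with a mean of 1.87 CPM in WT and of 0.0136 CPM in KO, which is below the floor, and the highest neighbour was C4orf33 at 0.42. Around ATF3, the log2 fold changes ran from -0.45 (PACC1) to 0.22 (DTL). Gene copy number was not analysed here.

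Further genes of the same and of other stress pathways were taken from 9 lists, 113 genes in all, of which 110 were tested. The lists were written from general knowledge with earlier results of these data known, so their counts are descriptions and no independent result. The lists of mitochondrial stress, cytosolic heat shock and NFE2L2 oxidative stress belong to the other pathways. Of the 110 tested genes, 44 were higher in KO, 24 were lower and 42 did not pass, with a median log2 fold change of 0.04. Over all 16198 tested genes, 31.9% were higher and 32.0% lower. Genes past both thresholds were 3 upwards and 4 downwards, where 8.30% and 7.73% of all 16198 genes passed. The list of further ATF4 targets had the most increases, 13 of 20 higher and 3 lower with a median of 0.27. NUPR1, a small stress-induced chromatin protein, had 2.92, 2.40 and 2.70 CPM in WT and 39.1, 35.4 and 41.6 CPM in KO (log2 fold change 3.85, adjusted p = 8.16e-26). SLC1A4, a transporter of alanine and serine, rose from 45.3, 42.0 and 36.5 CPM to 122, 109 and 127 CPM (log2 fold change 1.51, adjusted p = 6.17e-20). SESN2, a leucine sensor that restrains mTORC1 like DDIT4, rose from 90.5, 67.9 and 60.9 CPM to 180, 162 and 205 CPM (log2 fold change 1.29, adjusted p = 6.53e-15).

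In the same list, JDP2, a bZIP repressor, fell from 17.8, 17.4 and 16.8 CPM to 7.89, 7.65 and 8.43 CPM (log2 fold change -1.13, adjusted p = 4.58e-13). TXNIP, a regulator of glucose uptake, was barely detected, with 18, 17 and 11 counts in WT and 2, 1 and 0 counts in KO, so no fold is given. Of the 18 further ER folding genes, 8 were higher and 3 lower, where 31.9% and 32.0% of all tested genes were. Past both thresholds were 0 upwards and 2 downwards. ERO1A, the oxidase that recharges disulfide isomerases, fell from 286, 270 and 271 CPM to 104, 95.4 and 107 CPM (log2 fold change -1.43, adjusted p = 5.6e-22). DNAJC10, an ER reductase, fell from 129, 134 and 131 CPM to 63.0, 63.0 and 61.8 CPM (log2 fold change -1.07, adjusted p = 7.56e-19). XBP1, the target of ERN1, fell from 101, 81.2 and 89.0 CPM to 70.1, 60.8 and 76.9 CPM (log2 fold change -0.39, adjusted p = 1.15e-05), without regard to splicing.

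The other lists moved less. Of 10 genes of eIF2, its exchange factor eIF2B and their regulators, 3 were higher and 4 lower (median 0.00). Of the 16 cytosolic tRNA synthetases that are not members, 5 were higher and 2 lower (median -0.01). The XBP1 and ATF6 arm had 3 higher and 3 lower of 8 (median 0.09), and ER export and degradation 5 higher and 3 lower of 15 (median -0.03), where all 4 members of ER-associated degradation had been higher. Mitochondrial stress (2 higher and 2 lower of 7), cytosolic heat shock (3 and 2 of 9) and the NFE2L2 oxidative stress list (2 and 2 of 7 tested) had medians of 0.04, -0.01 and -0.04. No difference between these lists, or between them and all tested genes (31.9% higher, 32.0% lower), was tested.

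**Figure D4:**
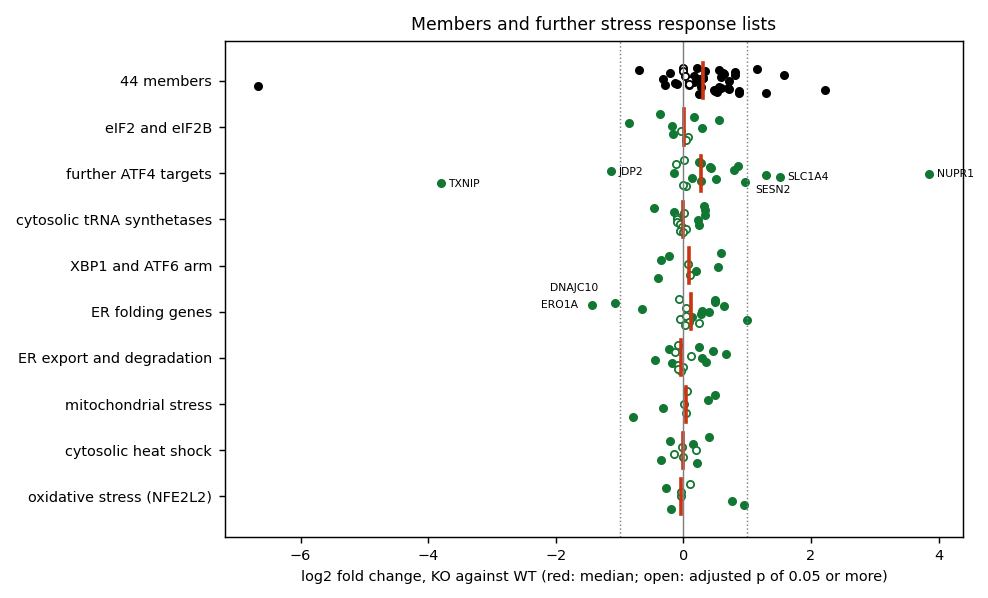
Log2 fold change, KO against WT, of the 44 members (black, top) and of the tested genes of 9 further lists (green), each point 1 gene, open where the adjusted p was 0.05 or more; red bars are list medians, dotted lines mark -1 and 1, and genes of the further lists beyond them are named. The medians of the members (0.30) and of the further ATF4 targets (0.27) lie highest, and those of the other lists between -0.04 and 0.11.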

How the data were processed

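RNA was extracted from untreated cells, and libraries were made with a directional kit and sequenced single-end. Per the paper's methods, reads were checked with FastQC, aligned with STAR to GRCh38 and counted with HTSeq-Count. Versions, annotation release, strand setting and the handling of multi-mapped reads are not given in the sources used here. The authors deposited raw counts per gene, with no normalization, for the 6 libraries (3 WT, 3 KO, from the genotype labels). Genes were matched without identifier version to GENCODE 44 (56321 of 60483).

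The comparison of KO and WT used edgeR 4.0.16 in R 4.3.3, with filterByExpr (minimum count 10), TMM scaling, the two-sided quasi-likelihood test and Benjamini-Hochberg adjustment over 16198 genes. Called up- or down-regulated were genes beyond a log2 fold change of 1 or -1 whose adjusted p was under 0.05. CPM use TMM-scaled totals, and the common biological coefficient of variation was 4.35%. An exact permutation test of 3 against 3 libraries cannot go below p = 0.1, which 37 members reached. Reads carried no molecular identifiers, so the floor of 3 counts covers counting error only. The test was checked on simulated counts. Members and lists were chosen with earlier results of these data known. Named in full are members past both thresholds, the 6 largest increases and decreases among called members, the 5 sensors, ATF4, DDIT3, HSPA5 and ASNS. From the further lists, genes past both thresholds and XBP1 are named, and EIF2AK2 was added after its values were seen. The alternatives were voom/limma 3.58.1, DESeq2 1.42.0, other scalings, filters and thresholds, thinning to the smallest total, and leaving out each library. Promoter sequences are from RefSeq (GRCh38.p14). Stretches near annotated exons are shown at no more than 30 bases.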

Additional observations from a re-analysis of the deposited data

How the results depend on the processing

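The numbers of members higher, lower and past both thresholds, and their median log2 fold change, kept their direction and stayed within 1.5 times of the values given, or within the spread between libraries for the median, under every alternative run. Members higher in KO numbered 29 to 32, and those lower 5 to 7. The number up-regulated was 3 when the test was made against the fold threshold itself and 6 without WT replicate 1. Upper-quartile scaling moved the median of all genes to 0.0284 and thinning moved that of the members to 0.34.

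For single members, 535 of 572 values under 13 alternatives kept direction and side of the threshold, 13 lost the call, 10 gained it and 14 changed sign; 32 members kept both under all 13. The sign changes were in uncalled genes near 0. ASNS was at 0.02083 under upper-quartile scaling, 0.01749 with at least 10 counts in every library, 0.03306 after thinning, and between -0.06095 and 0.04343 with 1 library left out. CALR was at 0.02592, 0.02177 and, with no filter, 0.002768, and between -0.02408 and 0.02583. DNAJB9 lay between -0.02519 and 0.04691 with 1 library left out. Calls lost for CHAC1, ERN1, DNAJC3, PDIA3 and PDIA4 are given in the text above, and PDIA6, PHGDH, MTHFD2 and GARS1 passed under some alternatives. The causes were not tested.

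No paired analysis was possible because the labels number the libraries 1 to 6 and tie no WT library to a KO library. The smallest library, WT replicate 3, sets the lowest detectable level at 0.270 CPM.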
